A study of Mus musculus with 4 samples.

Results

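The inflammatory chemokine ligands examined were Ccl3, Ccl4, Ccl5, Ccl2, Ccl11, Ccl17 and Cxcl5. They are 7 genes of 30142 that had a probe set annotated to exactly 1 symbol, and each was read by 1 probe set. The genes were chosen from the antibody comparison of these same arrays: Ccl3, Ccl4 and Ccl5 as the antibody's target and its close relatives, Ccl17 and Cxcl5 for high and Ccl11 and Ccl2 for low values among chemokine ligands. Their antibody differences are therefore given as a description, with no test, and the members were tested in the comparison of cell fractions. The SE printed beside an antibody difference comes from the fit and does not turn it into a test.

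Chemokines are small secreted proteins that draw leukocytes along a concentration gradient through G protein-coupled receptors. CC chemokines carry adjacent cysteines near the amino terminus, and in CXC chemokines another residue separates them. In the liver, resident macrophages and cells recruited from the blood release such ligands during injury, infection and tumour growth, and the ligands recruit further monocytes, neutrophils and lymphocytes. CCL3 and CCL5 bind the receptor CCR1.

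The arrays measured RNA of cells labelled as liver macrophages from male C57BL/6J mice, all carrying a disease model that the labels name CRCLM, in a series on VEGFC and colorectal cancer spread. One group had received an anti-CCL3 antibody, which binds the secreted protein, and the control group an isotype control antibody. Each group had 2 arrays, of fractions named after F4/80 and CD11b with the letter m or p, which the labels leave unexplained. Each combination of antibody and fraction thus had 1 array with no replicate. The labels give neither the animals' age nor whether arrays came from separate animals, so p-values measure no spread among animals. The error behind SE and p-values is how far the antibody difference departs between the fractions, moderated by a prior over all genes. An effect of antibody that differs by fraction therefore counts as error.

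Signals are given per probe set and were read as log2 values. No label states this scale, and the highest values, 19.9, lie above what such arrays usually give, so folds printed here hold only if the scale is log2. The median of the transcript clusters lay between 6.18 and 6.21 on the 4 arrays. As a reference, 5222 negative-control probe sets had medians of 6.32 to 6.39. Their highest value was 19.9 as well. Their 95th percentiles, 11.8 to 12.1, lay above those of the transcript clusters, 9.39 to 10.1. They are therefore no clean background, and a value among them does not show that a gene is silent. Macrophage markers were not set apart from these controls. Over 15 markers fixed for macrophages the mean levels ran from 5.35 for C1qb to 6.88 for Cd68, with Adgre1, which encodes F4/80, at 6.43, Itgam, which encodes CD11b, at 6.26, the lysozyme gene Lyz2 at 6.17 and the colony-stimulating factor receptor gene Csf1r at 5.38. The median over lists of T cell, NK cell, B cell, neutrophil, eosinophil and mast cell, endothelial, stellate cell, hepatocyte and epithelial markers lay between 5.98 and 6.43, against 6.01 for macrophage markers, so the levels do not show which cells gave the RNA. In bulk RNA, fewer cells of a type and less RNA per cell cannot be told apart.

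The chemokine signals lay within the middle of the negative-control distribution, as did those of most genes. All 28 values, of 7 genes on 4 arrays, fell inside the interquartile range of the negative controls on the same array, and so did 84.4% of the values of all tested genes. Ccl3 stood highest in this respect, above 68.8% to 74.7% of the negative controls, followed by Ccl11 at 65.2% to 74.5% and Ccl2 at 54.9% to 67.3%. Cxcl5 exceeded 53.0% to 61.5% of them, Ccl17 45.7% to 54.1%, Ccl4 46.0% to 49.8% and Ccl5 44.2% to 50.7%. Probe sets differ in how strongly they bind their target, so these percentiles place each probe set against the controls and do not rank the transcripts. Against all transcript clusters, which spread less than the controls, the mean percentiles were higher, at 86.5 for Ccl3, 85.0 for Ccl11, 78.4 for Ccl2, 72.1 for Cxcl5, 54.6 for Ccl17, 53.8 for Ccl4 and 51.7 for Ccl5.

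**Figure D1:**
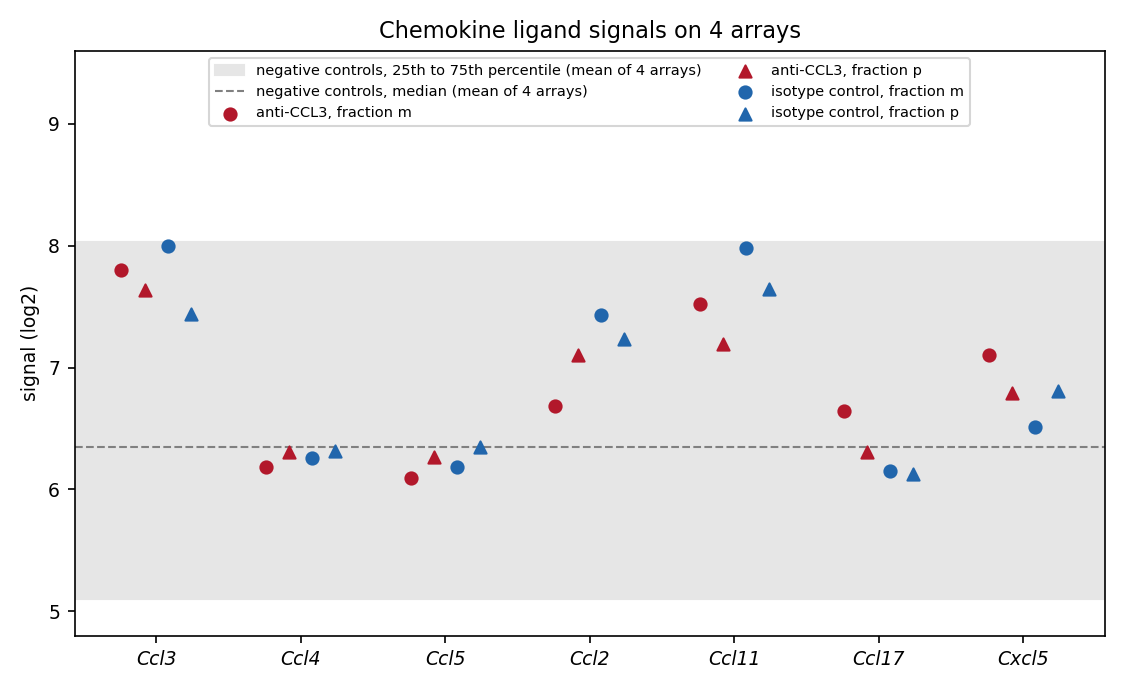
Signal (log2, vertical axis) of each chemokine ligand on the 4 arrays; red marks anti-CCL3, blue isotype control, circles fraction m and triangles fraction p, with 1 array per point. The grey band and dashed line give the interquartile range and median of the negative controls, each averaged over arrays, and all 28 points lie inside the band.

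The first question was whether RNA of the blocked chemokine itself differed with the antibody. Ccl3, also known as macrophage inflammatory protein 1 alpha, attracts monocytes, macrophages and T cells. On the treated arrays it read 7.80 in m and 7.64 in p, and on the control arrays 7.99 in m and 7.44 in p. The anti-CCL3 arrays lay between the isotype control arrays, so the antibody groups overlapped completely. The antibody difference (anti-CCL3 minus isotype control) came to -0.20 within m and to 0.20 within p. The fit averaged these to 0.00 ± 0.17 (SE, 4 arrays), which turned to -0.12 after quantile normalisation, -0.11 after cyclic loess and -0.02 and -0.01 after centring on the median and on the negative controls. An antibody against the protein need not alter the transcript, so this value does not check the treatment.

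Both arrays of fraction p lay below both arrays of fraction m in Ccl3. The difference, fraction p minus fraction m, was -0.16 in treated mice and -0.56 in controls. The fitted -0.36 ± 0.17 (SE, 4 arrays) corresponds to 0.781 times the signal of fraction m. The 95% interval, -0.92 to 0.20, includes no difference, and Ccl3 did not pass limma's test (Benjamini-Hochberg adjusted p = 0.671).

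Of the 7 members, Ccl4 and Ccl5 varied least over the 4 arrays. Ccl2, Ccl11, Ccl17 and Cxcl5 were chosen for high or low antibody values, so the choice itself favours a wider range in them. Ccl4, macrophage inflammatory protein 1 beta, attracts monocytes and T cells and is a neighbour of Ccl3 on chromosome 11. Treated arrays read 6.18 in m and 6.31 in p, control arrays 6.26 and 6.31. The whole range over the 4 arrays was 0.13. Anti-CCL3 minus control gave -0.08 for m and -0.01 for p, and -0.04 ± 0.11 (SE) in the fit. The RefSeq gene models of Ccl3 and Ccl4 overlap, and probe positions were not used here.

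Ccl5, also called RANTES, attracts T cells, monocytes and eosinophils. Its signal was 6.09 in m and 6.27 in p on treated arrays, and 6.18 and 6.35 on control arrays. The antibody difference was -0.09 in each fraction, and the arrays of the antibody groups overlapped because the fraction difference, 0.18 and 0.17, was the larger. Of the 7 genes, Ccl4 and Ccl5 were the pair with both fraction p arrays above both fraction m arrays, a pattern that 12.8% of all 15071 tested genes shared. Fitted fraction differences were 0.09 ± 0.11 for Ccl4 and 0.17 ± 0.11 (SE) for Ccl5, with adjusted p of 0.881 and 0.748 in limma's test and 95% intervals of -0.30 to 0.48 and -0.21 to 0.55. The fit's prior sets a floor of about 0.11 under these errors, so an error of that size was not measured from the arrays of the gene.

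Ccl2 and Ccl11 were the members with lower signals on both anti-CCL3 arrays than on both isotype control arrays. Ccl2, monocyte chemoattractant protein 1, draws monocytes from the bone marrow through CCR2. It read 6.68 in m and 7.10 in p on treated arrays, and 7.43 and 7.23 on control arrays. The low treated array of fraction m set most of the separation, since the antibody difference was -0.75 there and -0.13 in fraction p. The fit gave -0.44 ± 0.22 (SE), or 0.737 times the isotype control signal. In the fraction comparison Ccl2 changed sign, with 0.42 in treated mice and -0.20 in controls, and the fitted 0.11 ± 0.22 (SE) did not pass (limma, adjusted p = 0.932, 95% interval -0.64 to 0.86).

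Ccl11, eotaxin, draws eosinophils through CCR3. Treated arrays gave 7.53 for m and 7.19 for p, control arrays 7.98 and 7.65. The antibody difference was nearly the same in both fractions, -0.45 for m and -0.46 for p. So was the difference between fractions, -0.34 in treated mice and -0.33 in controls, and the arrays of the fractions overlapped. The fitted antibody value of -0.46 ± 0.11 (SE, at the floor set by the prior) corresponds to 0.729 times the isotype control signal. It became more negative under the other scalings, to -0.57 after quantile normalisation. The fitted fraction value of -0.33 ± 0.11 (SE) had the smallest p of the 7 genes in limma's test, 0.0675 unadjusted and 0.573 after Benjamini-Hochberg adjustment, with a 95% interval of -0.71 to 0.05.

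Among all tested genes 10.8% had both anti-CCL3 arrays below both isotype control arrays, against 2 of 7 members, and 21.5% had them above, against 1 of 7. Since the antibody comparison chose the members, these counts are given without a reading. The same choice fixed the ranks of Ccl2 and Ccl11, whose fitted antibody differences lay at percentiles 3.26 and 3.02 of all tested genes, outside the range from the 5th to the 95th percentile, -0.34 to 0.87. They lay at percentiles 28.3 and 27.8 of the negative controls, where that range ran from -1.55 to 1.75.

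The member with higher signals on both anti-CCL3 arrays was Ccl17, a chemokine that attracts T cells through CCR4 and is known as a product of alternatively activated macrophages and dendritic cells. It read 6.64 in m and 6.31 in p on treated arrays, and 6.15 and 6.12 on control arrays. Anti-CCL3 minus control gave 0.49 for m and 0.18 for p, and 0.34 ± 0.15 (SE) in the fit, or 1.27 times the isotype control signal. Fraction p minus fraction m gave -0.33 in treated mice and -0.02 in controls, so the treated array of fraction m stood apart from the other 3. The fitted fraction value of -0.18 ± 0.15 (SE) did not pass (limma, adjusted p = 0.799, 95% interval -0.68 to 0.32).

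Cxcl5 encodes a CXC chemokine that draws neutrophils through CXCR2. Treated arrays read 7.10 in m and 6.79 in p, control arrays 6.51 and 6.81, so that the antibody groups overlapped. Its antibody difference of 0.59 in fraction m had no counterpart in fraction p, where it was -0.02, and the fitted 0.29 ± 0.22 (SE) averages these unequal values. The fraction difference changed sign between antibody groups, at -0.31 and 0.29, and the fitted -0.01 ± 0.22 (SE) turned to 0.06 with quantile normalisation, 0.01 with median centring, 0.04 with cyclic loess and 0.04 with centring on the negative controls (limma, adjusted p = 0.997 in the deposited values).

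**Figure D2:**
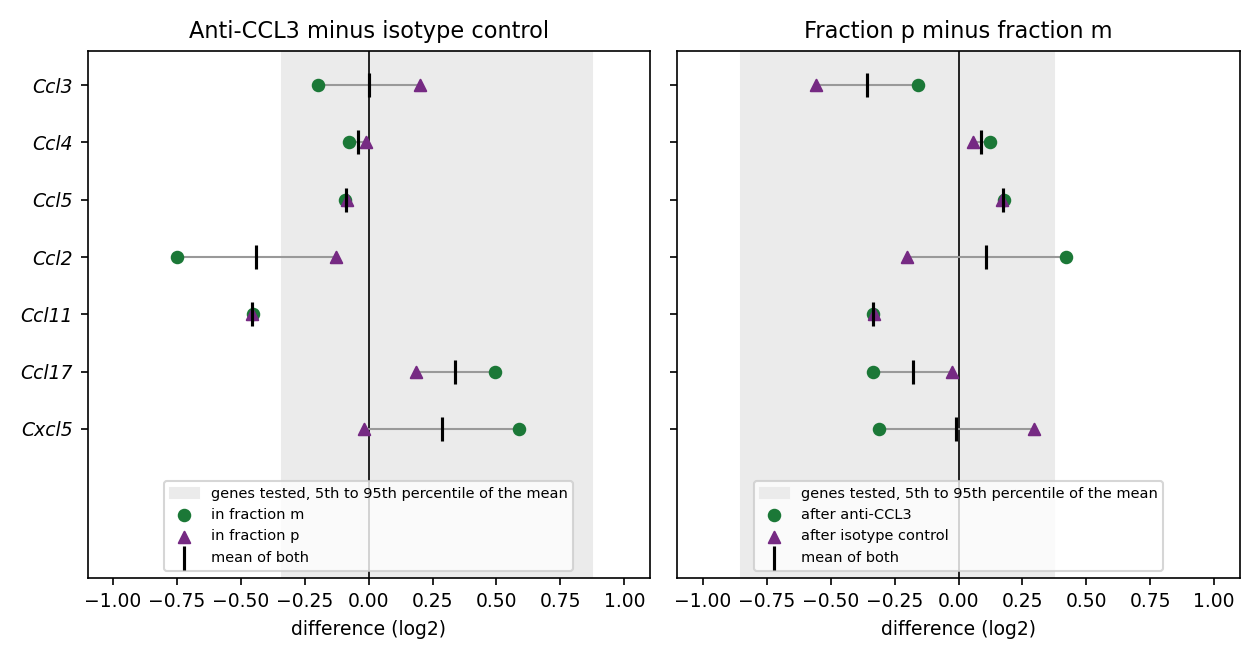
Log2 differences (horizontal axis) of each chemokine ligand: left, anti-CCL3 minus isotype control in each fraction, and right, fraction p minus fraction m in each antibody group, with a bar at their mean. Grey marks the 5th to 95th percentile of the mean difference over 15071 tested genes; Ccl2 and Ccl11, which were chosen for low antibody values, lie left of it in the antibody panel, and the points of Ccl5 and Ccl11 nearly coincide in both panels.

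In Ccl2, Ccl17 and Cxcl5 the antibody difference was larger in fraction m than in fraction p, in Ccl4, Ccl5 and Ccl11 they were within 0.07 of each other, and in Ccl3 they were alike in size and opposite in sign. These differences come from 1 array on each side and share arrays with the fraction differences, so the treated array of fraction m enters both. Opposite antibody differences in the fractions were found in 2 of 7 members, Ccl3 and Cxcl5, and in 45.9% of all tested genes. Opposite fraction differences in the antibody groups were found in 2 of 7, Ccl2 and Cxcl5, and in 43.8% of all tested genes. Of the 28 single differences, 27 lay within the interquartile range of the same difference among negative controls, the exception being Ccl2 in fraction m at percentile 22.1, and so did 90.3% of the single differences of all tested genes. Against the 5th to 95th percentile of the tested genes, which by definition holds most of them, 26 of 28 lay inside. The exceptions were the antibody differences of Ccl2 and Ccl11 in fraction m, genes chosen for low antibody values. These counts include the antibody differences that chose the members, so they are given without a reading.

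The choice of members used the antibody comparison, with which the fraction comparison shares its arrays and error term. For fraction, 0 of 7 members passed limma's test after Benjamini-Hochberg adjustment, as did 0% of the 15071 tested genes. At an unadjusted p under 0.05 stood 0 of 7 members and 9.28% of tested genes. Both fraction p arrays were below both fraction m arrays in 1 of 7 members, Ccl3, and in 24.2% of tested genes. The median fraction difference of the members was -0.01, with 3 higher and 4 lower. Over all tested genes it was -0.05, with 5842 higher and 9202 lower. A permutation of 2 arrays against 2 cannot give a two-sided exact p below 0.333, so no single gene could pass such a test.

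Other chemokine ligands from a list of 38 were read alongside. Of the 31 that are not members, 30 had a probe set and 16 were tested. Over all tested genes, fitted antibody differences were higher in 9038 and lower in 6006, with a median of 0.04. Those of the 16 ligands were higher in 8 and lower in 8, with a median of 0.01. The highest were Cxcl17 and Cxcl16, a transmembrane chemokine that binds CXCR6, at 0.22 and 0.18. Lowest were Xcl1, lymphotactin, a product of NK and T cells, at -0.36, and Ccl20, a ligand of CCR6, at -0.11. As in Ccl2, the treated array of fraction m was the low one in Xcl1, at 6.25, against 7.21 and 7.18 on the treated and control arrays of fraction p. The antibody difference of Xcl1 was -0.75 for m and 0.03 for p.

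Between fractions, 5842 of all 15071 tested genes were higher and 9202 lower in fraction p, with a median of -0.05. Of the 16 other ligands 6 were higher and 10 lower, with a median of -0.06, and 0 passed limma's test after adjustment. Xcl1 and Ccl24, an eosinophil attractant like Ccl11, were highest at 0.57 and 0.26. Ccl19, a ligand of CCR7 that guides dendritic cells and T cells to lymph nodes, and Cxcl17 were lowest at -0.49 and -0.33. Ccl19 was read by a probe set on a scaffold without a set position on its chromosome, and it was the tested ligand with an unadjusted p under 0.05, at 0.0436 (limma, adjusted p = 0.518).

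**Figure D3:**
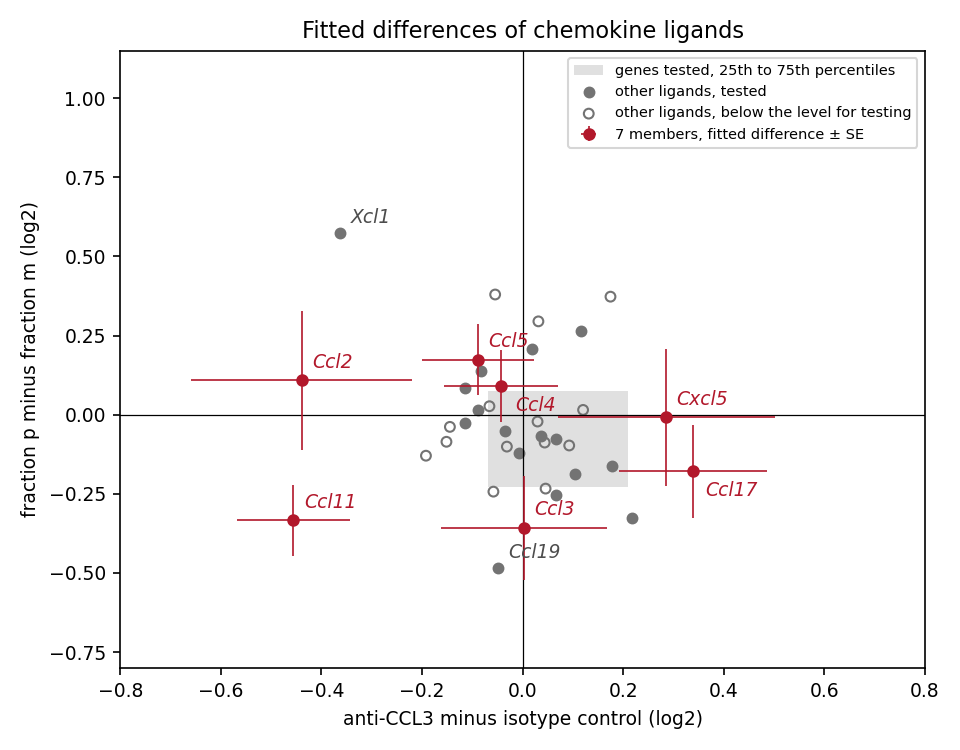
Fitted log2 difference for antibody (horizontal axis) and fraction (vertical axis) of 37 chemokine ligands; red points with bars are the 7 members with the SE of the fit, filled grey points the 16 other tested ligands, open points the ligands below the level for testing. The grey box gives the interquartile ranges over all tested genes, and Xcl1 and Ccl19 mark the highest and lowest fraction differences among the other ligands.

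Several members are neighbours in the CC chemokine genes of chromosome 11. In RefSeq order these are Ccl2, Ccl7, Ccl11, Ccl12, Ccl8 and Ccl1, and, after 25 other protein-coding genes, Ccl5, Ccl9, Ccl6, Ccl3 and Ccl4. In the first stretch the fitted antibody differences were -0.44 for Ccl2, 0.03 for Ccl7, -0.46 for Ccl11, -0.14 for Ccl12, -0.15 for Ccl8 and -0.03 for Ccl1. Ccl7, Ccl12, Ccl8 and Ccl1 lay below the level required for testing, 6.16. Ccl7, a monocyte attractant that lies between Ccl2 and Ccl11, had -0.26 in fraction m and 0.32 in fraction p. Ccl12, Ccl8 and Ccl1 had antibody differences in fractions m and p of -0.22 and -0.07, -0.17 and -0.13, and -0.04 and -0.03. In the second stretch the differences ran from -0.09 for Ccl5 to 0.07 for Ccl6, with Ccl9 at 0.02. Ccl6 and Ccl9 are ligands of CCR1 that myeloid cells make. They had antibody differences of opposite sign in fractions m and p, 0.27 and -0.14 for Ccl6 and 0.24 and -0.20 for Ccl9.

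Mean levels of the ligands' receptors were 5.30 for Ccr1, 5.39 for Ccr3 and 5.46 for Ccr4, below the level required for testing, and 6.93 for Ccr2 and 6.55 for Cxcr2. The design named the receptors for their levels only. Fitted fraction differences of the tested receptors were -0.10 for Ccr2 and -0.44 for Cxcr2. Cxcr2 had an unadjusted p of 0.0376 and an adjusted p of 0.515 in limma's test, where 9.28% of tested genes had an unadjusted p under 0.05. Its SE, 0.11, lay near the floor set by the prior. Genes that often rise with chemokines in activated macrophages had no common direction between fractions: of 14 inflammatory cytokine and effector genes 4 were tested, 2 higher and 2 lower in fraction p, and of 17 NF-kB pathway genes 6 were tested, 4 higher and 2 lower. Of these tested genes 0 passed limma's test for fraction after adjustment, and 0 stood at an unadjusted p under 0.05. Markers of neutrophils, the cells that Cxcl5 recruits, had a median fitted fraction difference of 0.05 over 6 tested genes. The median was -0.21 after anti-CCL3 and 0.19 after isotype control, so the fitted value averages opposite signs. Of the eosinophil markers, Siglecf and Prg2 were tested and stood at -0.06 and 0.52, with 0 of them past the adjusted threshold. The part of such cells in the chemokine values was not tested.

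Genes with a pattern like that of Ccl3 were counted. Predicted genes and olfactory and vomeronasal receptor genes were set aside, which left 7049 tested protein-coding genes. Over 4 arrays, 203 of these had a Pearson r of at least 0.95 with Ccl3, or 2.89% of those whose r could be computed. Those nearest by Euclidean distance of mean-centred values were Tmem252, the platelet collagen receptor gene Gp6 and Lyrm4, a component of iron-sulphur cluster assembly, at distances of 0.0507, 0.0517 and 0.0553. The points share their arrays and scaling, and a likeness over 4 arrays is a description.

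**Figure D4:**
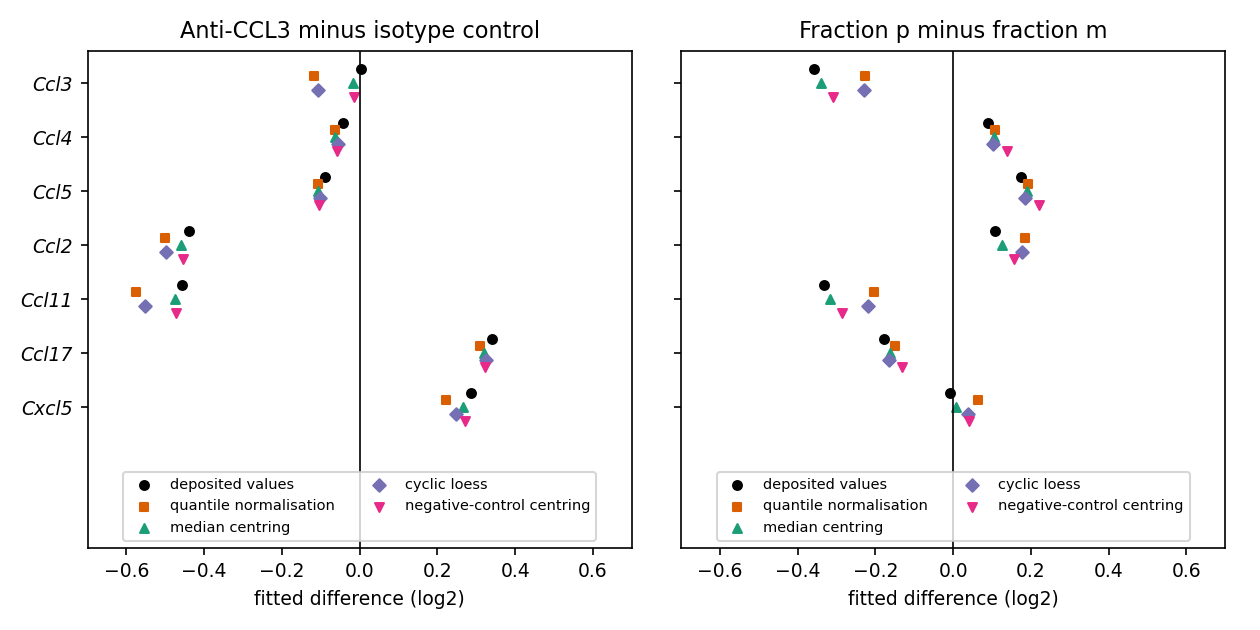
Fitted log2 differences (horizontal axis) of the 7 members in the deposited values and after 4 other scalings, left for antibody and right for fraction. Ccl2 and Ccl11 stay between -0.57 and -0.44 in the antibody panel, and only Ccl3 in that panel and Cxcl5 in the fraction panel lie on both sides of 0.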

How the data were processed

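Per the labels' protocols, RNA was amplified and labelled with biotin by the WT Pico kit. The authors summarised each probe set with RMA (Affymetrix Expression Console), as the submitters' processing notes record, in versions not given in the sources used. The deposited values were read as log2 signals, the usual scale of RMA, which no label states and which their maximum of 19.9 puts in some doubt. The table holds 72688 probe sets, among them 65956 transcript clusters and 5222 negative controls. Precision is limited by having 4 arrays.

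Genes were named through the platform annotation, with symbols updated through the gene number and checked against RefSeq genes of assembly GRCm38. Of the transcript clusters, 30604 had 1 symbol, 2146 several and 33206 none listed. For each of 30142 genes the brightest probe set was kept, and the 15071 genes with a mean at or above the median, 6.16, were tested. Across all genes, limma 3.58.1 in R 4.3.3 fitted antibody and fraction as additive terms with empirical Bayes moderation, with 1 residual degree of freedom and 1.69 from the prior, and Benjamini-Hochberg adjustment with a threshold of 0.05. The fit was tested on simulated data. Percentiles against negative controls were taken on each array. Named were all members, the 2 highest and 2 lowest other ligands in each comparison, receptors of the members (another is not reported here), 4 macrophage markers and the 3 genes nearest to Ccl3. Ends of lists, ligands in chromosomal order, eosinophil markers and counts of 5 or fewer were named after their values were seen. Members and lists were chosen with earlier results of these data known. Alternatives were 4 other scalings, other filters on dim genes, the mean over probe sets, protein-coding genes alone, an intensity trend, no term for the other factor and leaving out each array.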

Additional observations from a re-analysis of the deposited data

Results flagged for a closer look

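Some members had differences of opposite sign where the same contrast was read on another pair of arrays, and with 1 array on each side this was not tested. In Ccl3 the antibody difference in fraction m minus that in fraction p was -0.40, and in Cxcl5 it was 0.60. In Ccl2 the fraction difference after anti-CCL3 antibody minus that after isotype control was 0.62, and in Cxcl5 it was -0.60, the same interaction read the other way. Such opposite signs were found in 45.9% of all tested genes for antibody and in 43.8% for fraction.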

How the results depend on the processing

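In each of the 10 alternatives that allow a test, 0 genes passed limma's test for fraction after adjustment, with 573 to 2389 genes at an unadjusted p under 0.05. Leaving out an array leaves no residual degree of freedom and gives values alone. It returns the differences within 1 fraction or 1 antibody group, so these values are no further check. For the members the adjusted p for fraction lay between 0.570 and 0.997 over these alternatives. The fitted fraction difference of Cxcl5 reversed to 0.0633 after quantile normalisation, 0.00791 after median centring, 0.0372 after cyclic loess and 0.0398 after centring on the negative controls. The median antibody difference of the members, -0.04, was -0.11 after quantile normalisation, -0.10 after cyclic loess and -0.22 with a filter at the 75th percentile, which kept 4 members, and their median fraction difference was -0.17 with that filter. For the other ligands the median antibody difference was -0.0828 after quantile normalisation and -0.0529 after cyclic loess, and the median fraction difference, -0.06, was -0.00540 after quantile normalisation, -0.0110 after centring on the negative controls and -0.11 with that filter. The cause was not tested. Without 1 array each, the members' medians ran from -0.09 to -0.02 for antibody and from -0.16 to -0.0239 for fraction, and those of the other ligands from -0.00315 to 0.0682 and from -0.11 to -0.04. Set against all transcript clusters in place of negative controls, the percentiles of the members lay at 51.7 to 86.5. The labels give no replicate numbers, and the fraction term is the pairing of the arrays. Without the term for the other factor the fitted differences are the same and the smallest adjusted p for fraction over all genes was 0.134.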
